A study of Mus musculus with 3 samples.

Results

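A panel of 10 p53 target genes was followed in pmel CD8+ T cells recovered from B16F10 melanoma tumors: *Cdkn1a*, *Trp53inp1*, *Mdm2*, *Ccng1*, *Bax*, *Phlda3*, *Sesn2*, *Zmat3*, *Eda2r* and *Btg2*. They were taken by name as established targets, out of 33696 genes counted, but with earlier results of these data known. The question was how their levels differed between cytokine treatments and whether they rose together with *Cdkn1a* from cell to cell. The cells came from 3 treatments with 1 library each: sIL-2 (super IL-2, an IL-2 variant engineered to bind IL-2Rβ tightly), IL-2/21-Trikine (sIL-2 fused to an IL-21 mutant that binds IL-21Rα but does not itself signal, called Trikine below) and sIL-2 + IL-21 (separate molecules, called the combination below). In each arm, Thy1.1+ T cells with the transgenic pmel receptor, which recognizes the melanoma antigen gp100, were cultured with gp100 peptide and 10 nM cytokine for 6 days. They were transferred into C57BL/6 mice 5 to 6 weeks of age, 5 days after subcutaneous B16F10 injection, and all hosts had been lymphodepleted with 6 Gy of radiation. Mice then received 4 intraperitoneal doses of 2.5 μg cytokine at intervals of 48 hours. In the combination arm IL-21 was given only in the culture, and the hosts were treated with sIL-2, so it differs from the sIL-2 arm in the culture alone. Tumors were taken on day 18 after tumor injection and live Thy1.1+CD8+ cells were sorted. How many mice gave cells to each library is not given in the sources used here.

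p53, encoded by *Trp53*, is a transcription factor held at a low level by the ubiquitin ligase Mdm2 and released by DNA damage and other stress. It then switches on genes that stop the cell cycle, above all *Cdkn1a*, whose product p21 blocks cyclin-dependent kinases, together with genes for cell death, DNA repair and its own feedback control. p53 acts mainly through its protein, so the level of *Trp53* mRNA does not report its activity. In T cells, *Cdkn1a* is also induced by activation through the antigen receptor.

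Quality control with the study's limits kept 7760 cells with sIL-2, 13299 with Trikine and 9798 with the combination, with 130200802, 166772854 and 168041089 UMIs (captured RNA molecules). The median UMI number per cell ranged from 10254 to 14055.5, and cells under 2000 UMIs made up 13.3% of the Trikine library against 3.43% and 3.72% of the others. Pairs of libraries shared 18 to 43 cell barcodes. All 7 T cell markers, among them *Cd8a*, *Thy1* and *Trac*, were present in every library with summed levels of 4097 to 5034 CPM (UMIs scaled to a common library total). Markers of B cells summed to at most 0.14 CPM and those of melanoma cells to at most 7.13 CPM. The myeloid list summed to 202, 81.5 and 201 CPM in the order sIL-2, Trikine and the combination, of which *Fcer1g* alone gave 176, 56.1 and 189 CPM. Red blood cell genes stood at 68.7 CPM with sIL-2 and at 0.12 and 0.48 CPM in the other libraries. Each treatment has 1 library and thus no replicate, and no test was made between treatments. All intervals in brackets are exact 95% intervals for counting error only, and differences between treatments cannot be told apart from differences between libraries or mice.

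p53 binds a pair of elements of 10 bases each, with 3 purines, a core that starts with C and ends with G, and 3 pyrimidines. RefSeq promoter windows of 300 bases (250 before and 50 after the start of transcription, build GRCm38.p6) were matched for 8 of the 10 members, with 9 windows in all, since *Cdkn1a* has 2 starts. *Trp53inp1* and *Zmat3* had no window. Both strands are covered, because the element reads the same on each. The windows of *Cdkn1a* (upstream start) and *Ccng1* held 2 joined elements with 1 mismatch outside the C and G of each core, which 22 of 32851 promoters held (0.067%). Those of *Bax* and *Mdm2* held a single element, which 8.36% of all promoters held. The form of the search with 1 mismatch was chosen after the values were seen, so its share is a description only. Without a mismatch, 2 elements 0 to 13 bases apart were held by 24 promoters (0.073%). The *Cdkn1a* window held 2 full matches to the element within this distance, and was among these promoters. That of *Ccng1* held 1 full match. The stretches are shown because *Cdkn1a* is the gene by which cells are split below and the other genes are compared with it. Capitals mark the joined pairs and each full match to the element, and each sequence runs 5′ to 3′ on the strand of its gene.
Cdkn1a, chr17:29090729-29090978, + strand: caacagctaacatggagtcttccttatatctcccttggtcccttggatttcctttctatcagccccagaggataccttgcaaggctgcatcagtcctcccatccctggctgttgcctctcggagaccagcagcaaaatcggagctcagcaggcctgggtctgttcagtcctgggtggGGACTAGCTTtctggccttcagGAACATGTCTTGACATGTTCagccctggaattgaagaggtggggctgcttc
Ccng1, chr11:40755287-40755536, - strand: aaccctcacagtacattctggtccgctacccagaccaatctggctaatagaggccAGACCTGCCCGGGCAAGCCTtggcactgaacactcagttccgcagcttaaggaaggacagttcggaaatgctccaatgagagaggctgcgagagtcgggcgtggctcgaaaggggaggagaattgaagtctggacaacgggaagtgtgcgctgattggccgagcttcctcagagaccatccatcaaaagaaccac
Mdm2, chr10:117710910-117710969, - strand: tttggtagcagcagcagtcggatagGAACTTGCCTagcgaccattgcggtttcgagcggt
Bax, chr7:45467065-45467124, - strand: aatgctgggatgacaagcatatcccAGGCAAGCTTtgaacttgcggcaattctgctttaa
The joined pair began 51 bases before the start of *Cdkn1a* and 195 bases before that of *Ccng1*. A further single element in the *Cdkn1a* window began 73 bases before the start. The elements began 186 bases before the start of *Mdm2* and 201 before that of *Bax*. The other window of *Cdkn1a* and those of *Btg2*, *Phlda3*, *Sesn2* and *Eda2r* held no element, which says only that these letters are not in these windows.

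Most of the panel was highest with sIL-2 and lowest with Trikine. *Cdkn1a* (p21) stood at 484 CPM [480, 488] with sIL-2, 207 CPM [205, 210] with Trikine and 274 CPM [271, 276] with the combination. The Trikine library was thus 2.33 times lower than the sIL-2 library, and only 0.465% of 8824 genes with at least 5 CPM had a lower ratio between these libraries. *Btg2*, which slows proliferation and recruits the machinery that shortens mRNA tails, stood at 1151, 765 and 798 CPM in the order sIL-2, Trikine and the combination. *Ccng1*, the p53-induced cyclin G1 that takes part in the control of Mdm2, stood at 115, 81.1 and 98.9 CPM in this order. For *Btg2* the Trikine and combination libraries lay close to each other, while for *Ccng1* the combination library lay between the others.

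The feedback genes did not share 1 order. *Mdm2*, the ligase that removes p53, stood at 65.4 CPM with sIL-2, 50.1 CPM with Trikine and 66.0 CPM with the combination, where the counting intervals of the first and last overlapped. *Trp53inp1*, a nuclear stress protein that promotes p53 activity, stood at 62.4, 34.7 and 27.9 CPM and was the member with its lowest level in the combination library. *Trp53* mRNA stood at 181, 199 and 204 CPM in the order sIL-2, Trikine and the combination, and was thus lowest where *Cdkn1a* was highest.

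Among the genes of cell death and survival signaling, *Bax*, which opens the outer mitochondrial membrane, was the most even member, with 369 CPM for sIL-2, 335 CPM for Trikine and 388 CPM for the combination. *Phlda3*, which keeps the kinase Akt from the membrane, stood at 21.5 CPM with sIL-2 and at 13.2 and 14.0 CPM with Trikine and the combination. The last pair of intervals, [12.6, 13.7] and [13.4, 14.6], overlapped. *Sesn2*, an inhibitor of the growth kinase mTORC1, stood at 7.43, 4.68 and 6.75 CPM in the order sIL-2, Trikine and the combination. Its reads may be shared with *Gm12981*, which overlaps it on the same strand. *Zmat3*, an RNA-binding zinc finger protein, stood at 31.4, 19.7 and 22.0 CPM. *Eda2r*, a receptor of the TNF receptor family, had 25, 20 and 24 UMIs in the 3 libraries, 0.19 CPM or less, and its intervals overlapped in every pair.

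**Figure D1:**
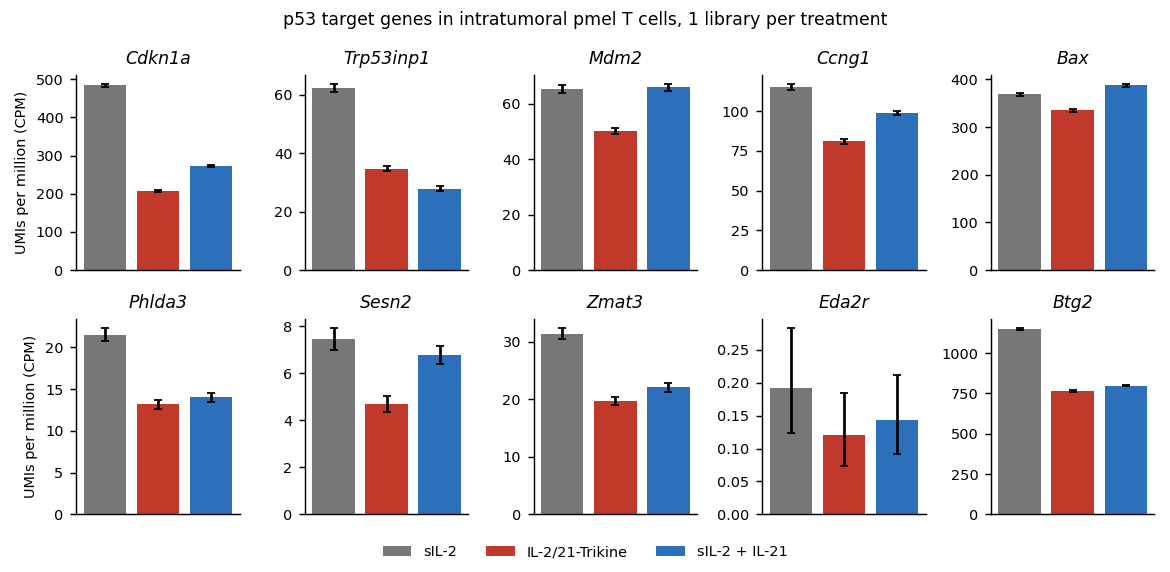
Level of each p53 target gene (vertical axis, CPM from 0) in the libraries of sIL-2 (gray), Trikine (red) and the combination (sIL-2 + IL-21, blue), 1 library each, with exact 95% counting intervals as error bars. The sIL-2 bar is the highest for 8 of 10 genes, and *Mdm2* and *Bax* are the exceptions, with 66.0 and 388 CPM in the combination library.

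Against all genes, the shift of the panel was largest between Trikine and sIL-2. The median log2 ratio over the 9 members with at least 5 CPM was -0.67, where all 8824 genes had a median of -0.08, and 7 of 9 members were lower by a log2 ratio of 0.5 or more with Trikine. Over all genes, 5.81% were lower by that much and 2.88% higher, and 0 members were higher. The members past this limit were *Cdkn1a* (-1.22 [-1.24, -1.20]), *Trp53inp1* (-0.84), *Phlda3* (-0.71), *Zmat3* (-0.67), *Sesn2* (-0.67), *Btg2* (-0.59) and *Ccng1* (-0.51), and those short of it were *Mdm2* (-0.39) and *Bax* (-0.14). *Ccng1* was close to the limit, and with size factors in place of totals it had -0.47.

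Between Trikine and the combination 8 of 9 members were lower with Trikine, most by less than 0.5. The median log2 ratio was -0.21 against 0.00 for all genes, and -0.34 without cycling cells (defined below). *Sesn2* was the 1 member lower by 0.5 or more (-0.53 [-0.66, -0.40]), where 3.58% of all genes were, and 0 were higher, where 3.51% were. *Cdkn1a* had -0.40 [-0.42, -0.38], below which 5.42% of all genes lay, and *Trp53inp1* 0.32 [0.26, 0.37] in this pair. Between sIL-2 and the combination the median was 0.51 against 0.08, and 5 of 9 members were higher by 0.5 or more with sIL-2, where 10.1% of all genes were. These were *Trp53inp1* (1.16), *Cdkn1a* (0.82), *Phlda3* (0.62), *Btg2* (0.53) and *Zmat3* (0.51), while 0 members were lower, where 5.79% of all genes were. *Btg2* and *Zmat3* were close to the limit, and in cells thinned to 2000 UMIs 2 members were past it, where 832 of 8824 genes were. The 3 comparisons share libraries, so their values are not independent of each other.

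**Figure D2:**
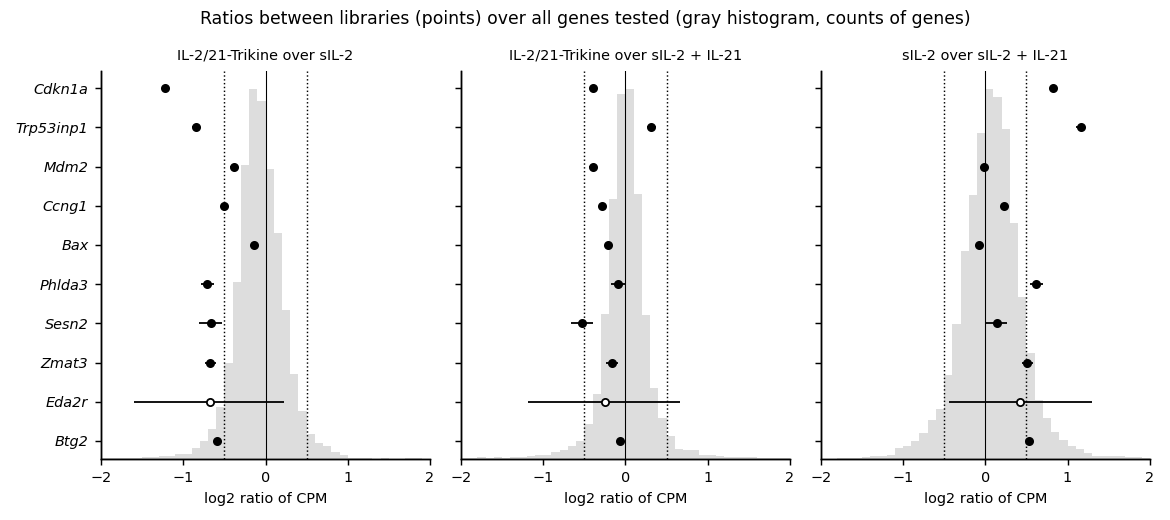
Log2 ratio of CPM between pairs of libraries (horizontal axis) for each member (black points with 95% counting intervals, *Eda2r* open because it is under 5 CPM), over the distribution of all 8824 genes (gray, scaled to each panel). Dotted lines stand at -0.5 and 0.5, and 7 members lie left of -0.5 in the panel of Trikine over sIL-2.

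Other programs moved between the same libraries. All 15 genes of a cell cycle list were higher with Trikine than with sIL-2 (median log2 ratio 0.56), where 3322 of 8824 genes were. All 15 were also lower with sIL-2 than with the combination (median -0.78), where 3559 of 8824 genes were. A list of genes induced by antigen signal, such as *Nr4a1* and *Egr2*, had a median of -0.49 for Trikine over sIL-2, where all genes had -0.08. A list of 14 genes known to rise during tissue dissociation, such as *Fos* and *Jun*, had -0.36. Of these, 5 were lower by 0.5 or more, where 5.81% of all genes were. *Fos* and *Jun* moved little, with 97.2 and 68.7 CPM for Trikine against 100 and 74.0 CPM for sIL-2. The part of these lists in the difference of the panel was not tested. Cycling cells were counted as those with 3 or more UMIs of the cell cycle list after thinning to 2000 UMIs, and made up 13.5% of cells with sIL-2, 24.1% with Trikine and 32.5% with the combination. Cells with 2 or 3 such UMIs, next to the limit, numbered 632, 1293 and 1479. Among non-cycling cells of at least 2000 UMIs, 7 of 9 members were lower by 0.5 or more with Trikine than with sIL-2, where 580 of 8824 genes were. The median for sIL-2 over the combination was 0.38 in these cells, against 0.09 for all genes. The same was counted among all cells of at least 2000 UMIs, cycling cells included. There, 7 of 9 members were lower by 0.5 or more with Trikine than with sIL-2, where 537 of 8824 genes were. The median for sIL-2 over the combination was then 0.51, against 0.08 for all genes.

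*Cdkn1a* UMIs were unevenly spread over cells. After thinning to 2000 UMIs per cell, 44.6% [43.5, 45.7] of cells had a *Cdkn1a* UMI with sIL-2, 23.8% [23.0, 24.5] with Trikine and 31.6% [30.6, 32.5] with the combination. Thinning left out 266, 1775 and 364 cells with fewer UMIs, and without thinning the shares were 73.9%, 45.9% and 66.3%. The 10% of cells with the most held 49.2%, 68.3% and 58.3% of the thinned *Cdkn1a* UMIs in this order. The mean was 1.09, 0.43 and 0.60 thinned *Cdkn1a* UMIs per cell. Such a share grows from counting alone as the mean falls, so it does not compare the spread between libraries. Cells with 5 or more *Cdkn1a* UMIs after thinning made up 5.36% with sIL-2, 1.23% with Trikine and 1.97% with the combination. The sort holds no cell type known to lack *Cdkn1a*, so the share that free RNA would give was not measured.

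To see whether the other targets moved with *Cdkn1a* within a library, cells of at least 2000 UMIs were put into 20 bins of equal depth, and in each bin the third of cells with the largest *Cdkn1a* share of UMIs (*Cdkn1a*-high) was compared with the third with the smallest (*Cdkn1a*-low). This gave 2494 high and as many low cells with sIL-2, 3840 each with Trikine and 3140 each with the combination. Median depths of high and low cells were 13314 and 13345.5 UMIs, 11603 and 11598 UMIs, and 14567 and 14560.5 UMIs in this order. *Cdkn1a* itself is used by the split. All 8 other members with at least 5 CPM were higher in *Cdkn1a*-high cells by a log2 ratio of 0.25 or more in every library, where 4.23% of 8821 genes were. Their median ratio was 1.26 with sIL-2, 1.15 with Trikine and 1.24 with the combination, against -0.07, -0.04 and -0.04 for all genes. The 3 libraries are separate looks at this relation, but the cells of a library share its mice and its preparation.

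*Phlda3* had the largest ratio. It stood at 47.6 CPM in *Cdkn1a*-high and 4.45 CPM in *Cdkn1a*-low cells with sIL-2, a log2 ratio of 3.42 [3.20, 3.64], at 31.9 and 2.91 CPM with Trikine (3.45 [3.22, 3.70]), and at 31.8 and 3.24 CPM with the combination (3.29 [3.07, 3.52]). Ranked by the lowest of the 3 ratios, *Phlda3* came in place 1 of 8821 genes. *Zmat3* came in place 5, with 54.8 against 14.6 CPM with sIL-2, 35.3 against 10.1 with Trikine and 37.1 against 12.1 with the combination.

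*Sesn2* (place 11) had log2 ratios of 1.57, 1.27 and 1.31 in the order sIL-2, Trikine and the combination. *Ccng1* (place 19) had 1.30, 1.24 and 1.16, and *Trp53inp1* (place 24) 1.21, 1.07 and 1.42. *Mdm2* (place 58) had 0.91, 0.76 and 1.03, *Bax* (place 85) 0.87, 0.79 and 0.63, and *Btg2* (place 92) 0.91, 0.61 and 0.65. All 8 thus lay among the first 92 genes, and their counting intervals stayed above 0.5 in every library. *Eda2r* had 12, 12 and 18 UMIs in *Cdkn1a*-high cells and 0, 3 and 0 in *Cdkn1a*-low cells, too few for a ratio. The relation held for all 8 members in each of 8 other settings, among them bins of depth made within each cluster, where the medians were 1.27, 1.11 and 1.26.

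**Figure D3:**
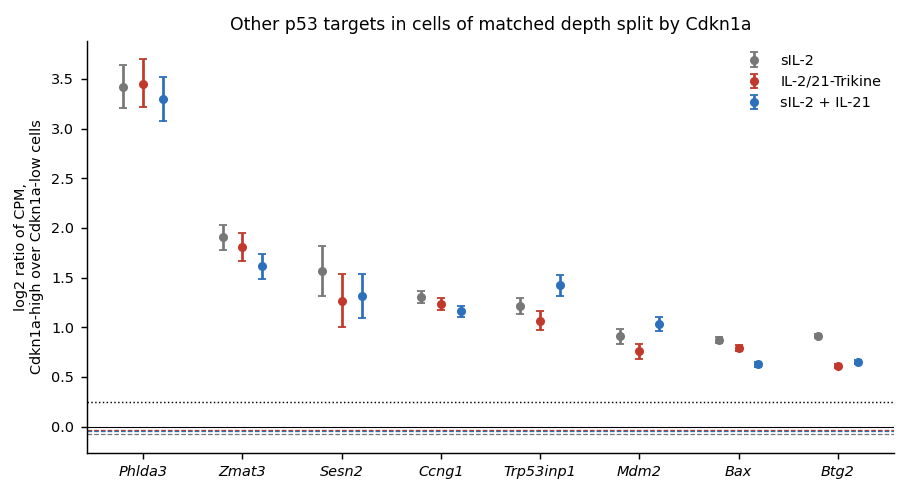
Log2 ratio of CPM in *Cdkn1a*-high over *Cdkn1a*-low cells of matched depth (vertical axis) for the 8 other members with at least 5 CPM, in the sIL-2 (gray), Trikine (red) and the combination (blue) libraries, with 95% counting intervals. The dotted line stands at 0.25 and dashed lines at the median of all genes, and *Phlda3* lies near 3.4 while *Btg2* and *Bax* lie between 0.61 and 0.91.

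In most targets the level rose with each class of *Cdkn1a* UMIs. In cells thinned to 2000 UMIs, *Phlda3* rose over the classes of 0, 1, 2, 3 to 4 and 5 or more *Cdkn1a* UMIs from 9.15 through 19.99, 32.0 and 44.5 to 89.6 CPM with sIL-2. With Trikine it went from 6.77 through 20.2, 41.9 and 70.9 to 102 CPM, and with the combination from 7.51 through 20.6, 30.6 and 55.8 to 99.5 CPM. *Ccng1* rose between the end classes from 78.7 to 240 CPM, from 63.5 to 324 CPM and from 78.4 to 247 CPM in the same order. *Bax* rose from 290 to 596 CPM, from 289 to 743 CPM and from 330 to 712 CPM. With sIL-2, *Zmat3* did not rise over the last step, with 71.8 CPM at 3 to 4 and 70.9 CPM at 5 or more, and *Sesn2* stood at 8.42 CPM at 1 and 7.03 CPM at 2, from 24 and 11 UMIs. The highest class held 402, 142 and 186 cells.

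Within a class of *Cdkn1a* UMIs the libraries were closer for some targets than for others. Among cells without a *Cdkn1a* UMI, *Trp53inp1* stood at 62.6 CPM with sIL-2, 36.0 CPM with Trikine and 30.7 CPM with the combination, and *Btg2* at 1102, 849 and 877 CPM. *Bax* stood at 290, 289 and 330 CPM in these cells. The sIL-2 library was thus highest for *Trp53inp1* and *Btg2* also among cells in which no *Cdkn1a* was seen after thinning. It was not for *Bax*. Before thinning, 73.9%, 45.9% and 66.3% of all cells in the same order had a *Cdkn1a* UMI, so part of this class did too. The class thus does not hold *Cdkn1a* equal between libraries.

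Some cells also held several targets at once. Among the 7 members left without *Cdkn1a* itself and without *Btg2* and *Bax*, which are seen in many cells of every library, 2 or more were seen in 6.55% [5.82, 7.34] of sIL-2 cells without a *Cdkn1a* UMI, in 17.5% [16.2, 18.8] of those with 1 or more, and in 31.8% [27.3, 36.6] of those with 5 or more. With Trikine the shares were 3.54%, 13.3% and 40.1%, and with the combination they were 4.58%, 13.3% and 34.9%. The order of these 3 classes was the same in every library. Except for *Eda2r*, each of these members was by itself higher in the class of 5 or more than in cells without a *Cdkn1a* UMI. The share that independent targets would give was not calculated. These shares thus cannot tell whether targets met in the same cells beyond that.

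**Figure D4:**
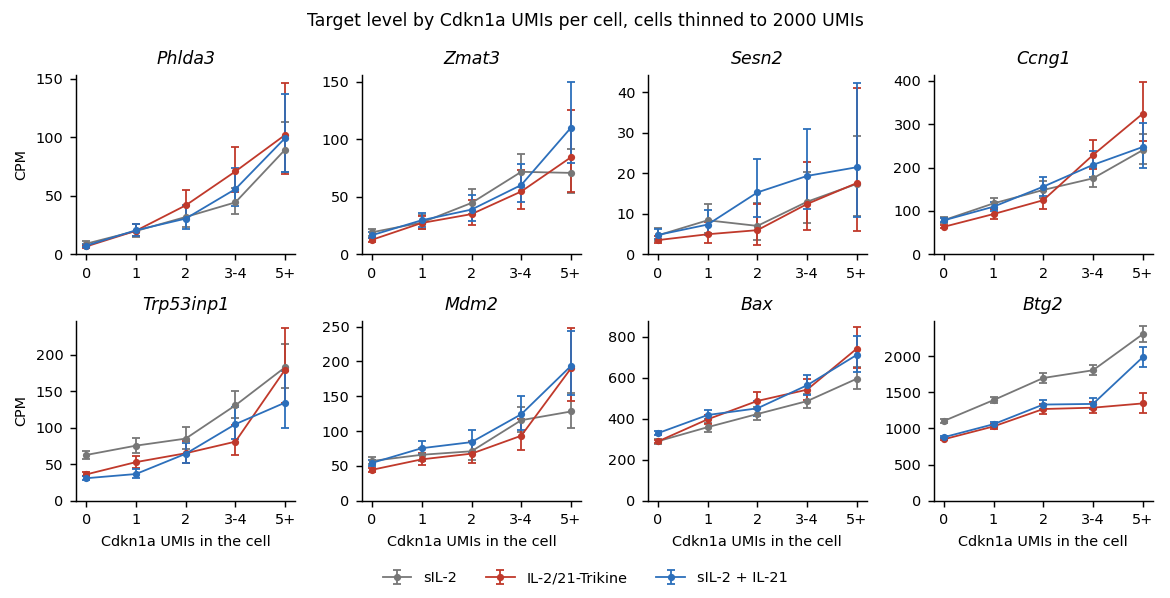
Level of 8 targets (vertical axes, CPM from 0) by the number of *Cdkn1a* UMIs in the cell (horizontal axis, cells thinned to 2000 UMIs), with 95% counting intervals, for sIL-2 (gray), Trikine (red) and the combination (blue). Each target is higher in the class of 5 or more UMIs than in the class of 0 in every library, for *Phlda3* by 89.6 against 9.15 CPM with sIL-2.

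Per cell the pairwise correlations were low. Over cells thinned to 5000 UMIs, 7279 with sIL-2, 10729 with Trikine and 8891 with the combination, Pearson's r of *Cdkn1a* was 0.29, 0.31 and 0.29 with *Phlda3*, and 0.26, 0.28 and 0.23 with *Ccng1*. It was 0.34, 0.19 and 0.22 with *Btg2* and 0.10, 0.059 and 0.11 with *Sesn2*. Between targets other than *Cdkn1a*, *Phlda3* and *Ccng1* had 0.18, 0.21 and 0.18, whereas *Btg2* and *Ccng1* had 0.034, 0.0085 and 0.040. *Btg2* thus went with *Cdkn1a* more than with *Ccng1*, and so did *Phlda3*. These are descriptions over cells that share a library.

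Of 43 further genes of the p53 pathway, 38 had at least 5 CPM, and 16 of them were higher in *Cdkn1a*-high cells of all 3 libraries by 0.25 or more, while 1 was lower, where 4.23% and 2.09% of all genes were. Of 8 death genes, 6 were higher: *Bbc3* (Puma, 1.46, 1.29 and 1.44 in the order sIL-2, Trikine and the combination), *Pmaip1* (Noxa, 1.28, 0.98 and 1.12), the death receptors *Tnfrsf10b* (1.20, 1.25 and 1.51) and *Fas* (0.92, 0.53 and 0.75), *Aen* and *Ei24*. Of 7 repair genes, *Polk*, *Gadd45a* and *Ercc5* were higher and *Rrm2b*, *Xpc*, *Polh* and *Ddb2* were not. *Psrc1*, a spindle protein, had the largest ratios of these 16 genes in every library (2.66, 2.46 and 2.15). The thiamine transporter *Slc19a2* had 1.69, 1.16 and 1.35. The others were *Mdm4*, *Plk3*, *Gtse1*, *Ddit4* and the noncoding RNA *Pvt1*. *Trp53* itself had -0.03, -0.07 and -0.17. The kinase gene *Chek1*, which is expressed in S phase, was the 1 lower gene (-0.65, -0.35 and -0.44).

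Between libraries, this wider list moved less than the panel. Its median log2 ratio was -0.16 for Trikine over sIL-2, 0.00 for Trikine over the combination and 0.18 for sIL-2 over the combination. For Trikine over sIL-2, 4 of 38 were lower by 0.5 or more, namely *Plk3* (-1.004), *Psrc1* (-0.78), *Pmaip1* (-0.52) and *Slc19a2* (-0.50), and 2 were higher, *Chek1* (1.01) and *Plk2* (0.74), beside 5.81% and 2.88% of all genes. For Trikine over the combination, *Ddit4* was lower (-0.73) and *Perp* (0.58), *Gadd45a* (0.57) and *Fas* (0.56) were higher, beside 3.58% and 3.51% of all genes. For sIL-2 over the combination, 6 were higher, led by *Psrc1* (0.81), and *Plk2* (-1.001) and *Chek1* (-0.82) were lower, beside 10.1% and 5.79% of all genes.

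*Cdkn1a* is 1 of several inhibitors of cyclin-dependent kinases, and 2 others of the 5 that were measured at 5 CPM or more went with it. *Cdkn2a*, which encodes p16 and Arf, stood at 86.7 CPM with sIL-2, 28.6 CPM with Trikine and 72.6 CPM with the combination, and *Cdkn2b* at 13.7, 4.09 and 7.40 CPM. Both were also higher in *Cdkn1a*-high cells, *Cdkn2a* by 1.57, 1.03 and 1.28 and *Cdkn2b* by 1.34, 1.25 and 1.59. *Cdkn1b* (p27) was not, with -0.05, -0.12 and 0.02.

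The split by *Cdkn1a* also divided cells by other programs. With the limit of 0.25 in every library, which 4.23% of all genes passed as higher and 2.09% as lower, 9 of 15 cell cycle genes were lower in *Cdkn1a*-high cells, *Ccnb1* by -1.25, -0.81 and -0.60. Of 10 antigen signal genes, 9 were higher, *Nr4a1* by 1.37, 1.14 and 1.01, and of 14 dissociation genes, 8 were higher, *Atf3* by 1.60, 1.19 and 1.40, while the heat shock genes *Hspa1a* and *Hspa1b* were not. Markers of other cell types did not move one way. Of the 8 myeloid genes, *Lyz2* (3.56, 4.06 and 1.86), *Cxcl2* (3.02, 4.11 and 2.19), *Il1b* (8.55, 3.61 and 1.11) and *Csf1r* were past the limit in every library, while *Fcer1g*, the most abundant of them, had -1.13, 0.05 and 0.19. *Cd14* and *Itgam* were not past it in all 3. *Adgre1* had 5, 7 and 6 UMIs in *Cdkn1a*-high and 4, 0 and 1 in *Cdkn1a*-low cells, too few to place. The melanoma genes *Mlana*, *Dct*, *Tyrp1* and *Tyr* were lower with sIL-2 and higher with Trikine, *Dct* by -2.70 and 2.75, and red blood cell genes lay in *Cdkn1a*-low cells of sIL-2, with 3916 of the *Hbb-bs* UMIs against 33 in *Cdkn1a*-high cells. Without cells that held 2 or more UMIs of the markers of other cell types, *Fcer1g* and *Pecam1* not counted among these, the median of the members was 1.29, 1.17 and 1.25, with 8 of 8 past the limit, where 4.15% of all genes were. Without cycling cells it was 1.20, 1.16 and 1.20. The part of antigen signal and of dissociation in the relation was not tested.

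Ranked by the lowest of the 3 ratios, the 10 genes most like *Cdkn1a* among 5531 with at least 20 CPM were *Serpine2* (2.22, 2.12 and 1.62 in the order sIL-2, Trikine and the combination), *Zmat3*, *Tnfsf4*, *Bbc3*, *Ccl3*, *Atf3*, *Ccng1*, *Egr1*, *Egr3* and *Trp53inp1*. Of these, 3 are members and *Bbc3* is on the pathway list. *Egr1* and *Egr3* are on the antigen signal list and *Atf3* is on the dissociation list. *Phlda3* and *Sesn2* were below 20 CPM and were not ranked there. The 5 genes that went most against *Cdkn1a* were *Cdc20*, *Ccnb1*, *Cyp51*, *Ccnb2* and *Tox*, with ratios between -1.25 and -0.53.

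Cells of the 3 libraries were also clustered without the members, the pathway genes and the cell type markers. Over the 10 clusters of at least 200 cells, *Cdkn1a* was highest in cluster 3, led by *Crabp2*, *Crtam* and *Myc*, in every library, with 692 CPM for sIL-2, 334 CPM for Trikine and 547 CPM for the combination. Cluster 7, led by *Il3*, *Il2* and *Ccl3*, came next in every library, with 638, 289 and 446 CPM. With the libraries pooled, cluster 7 stood at 497 CPM and cluster 3 at 487 CPM, and the libraries make up different shares of each cluster. The lowest level in every library was in cluster 6, with 189, 98.6 and 166 CPM, so that clusters spanned 3.66-fold, 3.39-fold and 3.30-fold. Cells of cluster 6 were shallow, with 1235 UMIs at the median and 9.60% mitochondrial UMIs. A further group of 23 cells led by *Cxcl2*, *S100a9* and *S100a8* had 1192 CPM [1020, 1384].

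The targets did not share 1 order over clusters. *Btg2* followed *Cdkn1a* more closely than most, with Spearman's rho of 0.75, 0.53 and 0.60 over the 10 clusters in the order sIL-2, Trikine and the combination, and *Bax* had 0.33, 0.49 and 0.73. *Btg2* was highest in cluster 4, led by the interferon-induced *Ifit3*, *Ifit1* and *Cxcl10*, in each library. *Phlda3* had rho of 0.41, 0.22 and 0.48 and was highest in cluster 5 with sIL-2 (46.1 CPM) and the combination (33.5 CPM), and in cluster 3 with Trikine (20.5 CPM). Cluster 5, led by *Hbb-bs*, *Hbb-bt* and *Hba-a1*, was shallow, with 4351 UMIs at the median. It held 2.46% of sIL-2, 9.84% of Trikine and 1.29% of combination cells. Over all kept cells *Hbb-bs* had 3971 UMIs with sIL-2, 2 with Trikine and 29 with the combination, so its leading genes stand for sIL-2 cells. The cluster held 199 *Phlda3* UMIs with the libraries pooled, Trikine included, so the maxima with sIL-2 and the combination rest on fewer UMIs than that. *Trp53inp1* had rho of 0.14, 0.018 and 0.16, and its lowest level in every library was in cluster 8, led by *Mt1* and *Mt2*, with 20.1, 12.9 and 12.3 CPM. *Ccng1* had 0.042, 0.067 and -0.091 and spanned 1.29-fold, 1.41-fold and 1.82-fold, while between cells its log2 ratios were 1.39, 1.30 and 1.18 with bins of depth made within clusters.

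**Figure D5:**
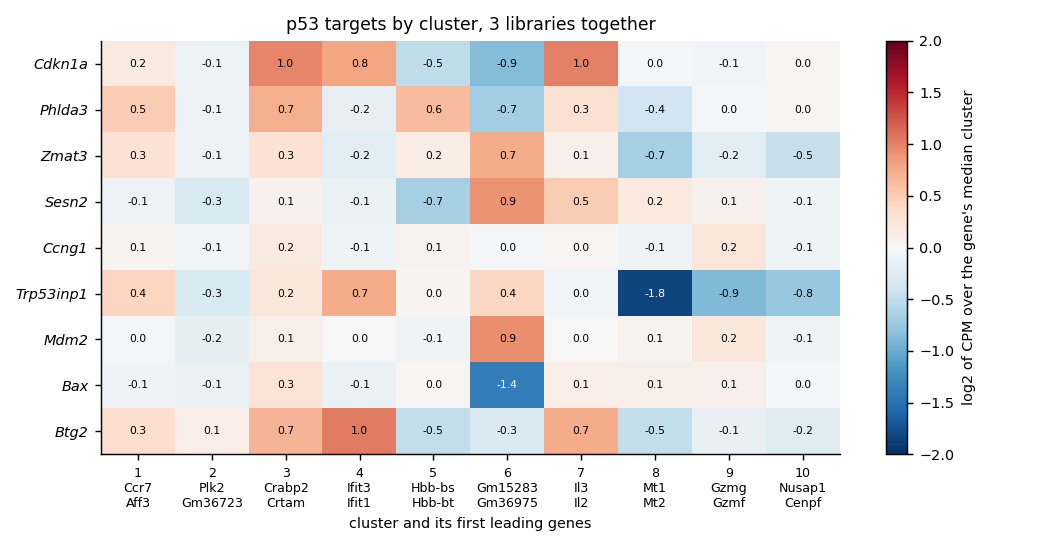
Level of *Cdkn1a* and 8 targets (rows) in the 10 clusters of at least 200 cells (columns, with the first leading genes), as log2 of CPM, libraries pooled, over the median cluster of each gene. *Cdkn1a* and *Btg2* are high in clusters 3, 4 and 7, *Trp53inp1* is lowest in cluster 8 at 13.3 CPM, and *Ccng1* spans 1.26-fold.

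Inside clusters, *Cdkn1a* was again lowest with Trikine. In each of 10 clusters *Cdkn1a* was lower with Trikine than with sIL-2, with log2 ratios from -1.69 (cluster 1, led by *Ccr7*, *Aff3* and *Tcf7*) to -0.55 (cluster 8). It was also lower than with the combination in each, from -1.04 to -0.30, and every counting interval in both pairs lay below 0. Between sIL-2 and the combination it was higher with sIL-2 in 9 of 10 clusters, with 8 intervals above 0, and had -0.14 in cluster 5. Of the 9 members, 8 were below 0 in every cluster for Trikine over sIL-2, and *Zmat3* was in 9 of 10. Over all cells, 5502 of 8824 genes were below 0 in this pair, and the share of all genes inside clusters was not counted. For Trikine over the combination, 6 members were below 0 in every cluster, where 4365 of 8824 genes were below 0 over all cells. *Trp53inp1* was below 0 in 7 of 10 clusters in that pair, with a median of -0.27, although its ratio over all cells was 0.32.

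Cycling cells had less of most members than other cells of their library, and the share of all genes with less was not counted. *Cdkn1a* stood at 326 CPM in cycling and 534 CPM in other cells with sIL-2, at 171 and 231 CPM with Trikine and at 231 and 311 CPM with the combination. *Trp53inp1* differed more, with 32.7 against 71.5 CPM, 23.9 against 41.0 CPM and 18.0 against 36.4 CPM. *Btg2* had log2 ratios of -0.90, -0.71 and -0.59, cycling over other cells, in the same order. *Mdm2*, *Ccng1* and *Bax* differed by a log2 ratio of at most 0.22 in any library, and the interval of *Sesn2* included 0 in all 3. Among non-cycling cells, *Cdkn1a* again followed the order sIL-2, the combination and Trikine.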

How the data were processed

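Single-cell libraries (10x 3′ chemistry, 1 per treatment) held raw UMI counts per gene and cell, which the authors deposited as called cells from Cell Ranger 9.0.0 with intronic reads included and no normalization. The methods give a GRCm39 reference, whereas the submitters' processing notes name mm10, and no position was taken from the files. Cells with 500 to 120000 UMIs and at most 20% mitochondrial UMIs were kept. UMIs were summed over cells and scaled to CPM. Ratios are log2 with an exact binomial interval at 95%, and genes with a mean of at least 5 CPM were compared (9 of the 10 members, which is 8 beside *Cdkn1a*). No pseudocount was added. Thinning and the alternative without cycling cells leave out cells under 2000 UMIs. Shares used cells thinned to 2000 UMIs with a fixed seed. Clusters came from scanpy 1.11.5 (2000 variable genes, 50 principal components, 20 neighbors, Leiden resolution 1.0, no batch correction) and stay unnamed. Doublets were not removed, and leaving out the 5% of cells with the highest Scrublet score was an alternative.

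The members and gene lists were chosen with earlier results of these data known. Named genes are the members, pathway genes past a log2 ratio of 0.5 in a pair of libraries or 0.25 in *Cdkn1a*-high cells of all 3, and examples of the other lists. A few pathway genes that did not pass are named beside those that did, chosen after their values were seen, as were the exact form of the promoter search with 1 mismatch, the alternative without *Fcer1g* and *Pecam1* and that of cells with at least 2000 UMIs. The cutoffs for *Cdkn1a* UMI classes were also chosen then. The study's own test over cells between treatments was not used, because cells are not replicates. Calculations used Python 3.11.15, numpy 2.4.6, scipy 1.17.1, pandas 2.3.3 and matplotlib 3.10.9, and were tested on simulated data. Promoter sequences are from RefSeq (GRCm38.p6).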

Additional observations from a re-analysis of the deposited data

Results flagged for a closer look

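Genes from the lists above had log2 ratios of opposite sign in *Cdkn1a*-high over *Cdkn1a*-low cells of different libraries, each beyond its counting interval. The share of all genes that did so was not counted. *Ddb2*, a damage recognition gene of nucleotide excision repair, had -0.17 with sIL-2 and 0.13 [0.001, 0.26] with the combination. *Cdkn2c*, an inhibitor of cyclin-dependent kinases, had -0.29 with sIL-2 and 0.17 with the combination. *Rrm2*, a subunit of ribonucleotide reductase that peaks in S phase, had -0.31 with sIL-2, 0.23 with Trikine and 0.057 [0.005, 0.11] with the combination. With 1 library per treatment these differences were not tested.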

How the results depend on the processing

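No alternative reversed the direction of a value given for the panel as a whole. The median of the members ranged over 11 alternatives from -0.72 to -0.59 for Trikine over sIL-2. For Trikine over the combination it was -0.34 without cycling cells and cells under 2000 UMIs, -0.23 without cells of other types, -0.30 with every cell weighted equally and -0.31 in cells thinned to 2000 UMIs, and 0 members were lower by 0.5 or more when at least 20 CPM was asked. For sIL-2 over the combination these medians were 0.38, 0.57, 0.44 and 0.36 in the same order. In this pair 3 members were higher by 0.5 or more without cycling cells, 3 with size factors and 2 in thinned cells. Of all 8824 genes, 706 were higher by that much without cycling cells, 731 with size factors and 832 in thinned cells. With every cell weighted equally, all genes split into 428 higher and 467 lower for Trikine over sIL-2, in place of 254 and 513. For Trikine over the combination they split into 209 and 394 in thinned cells and 239 and 486 without cycling cells, in place of 310 and 316. Cells with against without a *Cdkn1a* UMI gave medians of 0.83, 0.93 and 0.90 in the order sIL-2, Trikine and the combination, the highest against the lowest 20% of cells 1.55, 1.44 and 1.60, and leaving out cells of other types 1.38 with sIL-2. This last alternative left out 2843, 2588 and 3776 of all kept cells in the same order, but 175, 172 and 121 where *Fcer1g* and *Pecam1* were not counted. Most cells it left out thus passed the limit only through *Fcer1g* or *Pecam1*, and are not known to be of another type. Shares of cells with a *Cdkn1a* UMI were 30.9%, 14.7% and 20.7% at 1000 UMIs and 61.3%, 37.2% and 49.3% at 5000 UMIs. The log2 span of *Cdkn1a* over clusters was 1.88, and 2.21 at resolution 1.5 and 2.22 with the p53 genes kept. Leaving out cells under 2000 UMIs alone, an alternative added after the data were seen, gave -0.67, -0.20 and 0.51 for the 3 pairs of libraries. The cause of the other shifts was not tested. No paired analysis was possible because each treatment has 1 library, and for the same reason no library could be left out.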
